A study of Mus musculus with 18 samples.

Results

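The Polycomb genes described here are 10 core and accessory subunits of the 2 Polycomb repressive complexes, PRC2 and PRC1, in mouse haematopoietic stem cells (HSCs). They were listed by gene name, with earlier results of these data known, from the 23038 genes of the deposited tables. Each of the 10 has 1 row in both tables. Ezh2, Ezh1, Eed, Suz12 and Jarid2 belong to PRC2, and Ring1, Rnf2, Bmi1, Cbx7 and Phc1 to PRC1. The study compared 18 libraries in 6 groups of 3, from wild-type mice and from Mx1-cre; Mettl3 fl/fl mice, both C57BL/6. Mettl3 is the catalytic subunit of the enzyme that writes N6-methyladenosine (m6A) on mRNA, and the question of the series is which adult HSC transcripts are m6A targets of this enzyme.

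Both genotypes received 5 intraperitoneal doses of 10 µg pIpC, 1 every other day, and were analysed 10 days after the last dose. pIpC raises interferon, which switches on Mx1-cre in blood cells and in other interferon-responsive cells, so the deletion is not limited to HSCs and the wild-type cells had the same interferon stimulus. The labels do not say whether the wild-type mice carried Mx1-cre or a floxed allele, and give the age only as adult. From hindlimb bone marrow, 3000 Lineage- Sca1+ cKit+ CD150+ CD48- cells were sorted per sample. Their poly(A)+ RNA was split with an antibody to m6A into an input, an unbound (washed off) and an m6A-tagged (eluted) fraction, and amplified by Smart-seq2. The labels describe no fragmentation of the RNA before the antibody step, so a value belongs to a whole gene and cannot place a methylated base within it. In the design text the 3 samples of a group are biological replicates.

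PRC2 places methyl groups on lysine 27 of histone H3, through Ezh2 or its paralog Ezh1, in a core that also needs Eed and Suz12. PRC1 attaches ubiquitin to histone H2A through Ring1 or Rnf2. Its canonical form also holds a PCGF subunit such as Bmi1, a chromobox subunit such as Cbx7 that binds the PRC2 mark, and a polyhomeotic subunit such as Phc1. Both complexes keep developmental regulators and cell cycle inhibitors silent. In blood stem cells Bmi1 is known for its need in self-renewal and Cbx7 for favouring it, and Ezh1 and Ezh2 can partly replace each other.

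Every level below is in RPKM (reads divided by gene length in kilobases and by depth in M reads, M being 1e6) and is the authors' mean of 3 libraries, given without an SD because 1 pooled value per group was deposited. Differences between groups therefore have no replicate check, and no p-value is given for them, except for Suz12 in unbound RNA, whose single libraries could be worked out. A ratio is log2((RPKM + 1)/(RPKM + 1)), which shrinks the ratios of low genes, and folds are on this scale. A difference of 2-fold or more is the size used for counting a gene. The share of genes that pass this size by themselves is given beside each count, over the 10152 genes that averaged 2 RPKM or more across the 6 columns. Wild-type and Mettl3-deficient values stand in 2 separate tables that follow the same formula. Depth worked out from the values was 9.42 to 37.22 M reads per library, and the lowest were in the Mettl3-deficient input and unbound groups. Mettl3 itself stood at 36.4, 33.2 and 36.1 RPKM in the input, unbound and m6A-tagged columns of wild-type cells and at 19.6, 11.2 and 17.4 RPKM in the same columns of Mettl3-deficient cells.

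Sequence was available for the promoters of all 10 genes, as 11 windows of 250 bases before to 50 after the start site, from RefSeq on GRCm38.p6 (Jarid2 has 2). For Ezh2, Cbx7 and 1 of the 2 Jarid2 windows this start site lies inside the gene span given below, and not at its outer end. The windows were rich in CpG. The ratio of observed to expected CpG lay above the median of all 32851 promoters (0.38) in 11 of 11 windows, from 0.53 in Phc1 to 1.09 in Suz12. GC content lay above the median of 52.7% in 10 of the 11. The motif TTTNNCGC, a form of the site bound by E2F cell cycle factors, which are known regulators of Ezh2, was searched on both strands. It occurred in 2 of the 11 windows, those of Ezh2 and Suz12, and in 5.17% of all promoters. These 2 matches are the only ones in the 11 windows, and both are shown with the motif in capitals. A match describes the letters only and shows neither a bound site nor a cause.
Ezh2, chr6:47595009-47595038, minus strand, first motif base at 4 from the start site: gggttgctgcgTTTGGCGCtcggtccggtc
Suz12, chr11:79992876-79992905, plus strand, first motif base at -219 from the start site: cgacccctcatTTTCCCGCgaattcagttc

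The wild-type input column gives the order of the Polycomb mRNAs in HSCs with Mettl3. The PRC2 genes Eed and Ezh2 were the highest, at 59.2 and 53.6 RPKM, and stood at the 80.4th and 78.2nd percentiles of the 10152 genes. Rnf2 followed at 25.4 RPKM, and then Ring1 (13.3), Ezh1 (13.2), Phc1 (12.0), Jarid2 (9.92), Bmi1 (9.53) and Cbx7 (6.15). Suz12 was the lowest at 3.79 RPKM, the 8.8th percentile, which puts Eed 15.6-fold above its partner in the same core on RPKM with nothing added. Neighbours in this order, such as Ring1 and Ezh1 or Jarid2 and Bmi1, cannot be ranked against each other without a spread between libraries. Ezh2 exceeded its paralog Ezh1 4.07-fold, and Rnf2 exceeded its paralog Ring1 1.92-fold. How the counting treated reads that fit both paralogs is not stated in the labels. The span of Cbx7 overlaps that of Apobec3 (input levels of 76.7 RPKM in wild-type cells and 83.5 without Mettl3), and Smart-seq2 does not mark strand.

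**Figure D1:**
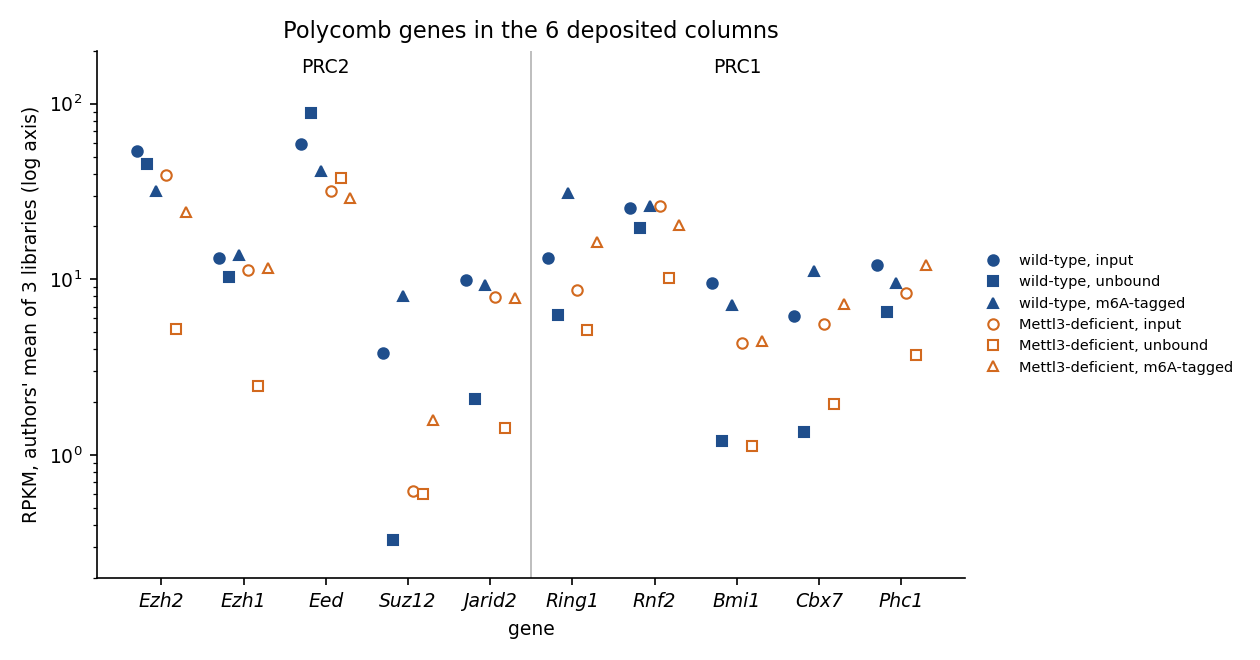
RPKM (log axis) of each Polycomb gene in the 6 deposited columns; filled blue symbols are wild-type and open orange symbols Mettl3-deficient, with circles for input, squares for unbound and triangles for m6A-tagged RNA, each the authors' mean of 3 libraries. Eed and Ezh2 are the highest genes in wild-type input, and the open square of Ezh2 (5.18 RPKM) stands far under its filled square (45.3 RPKM).

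The first comparison asks which Polycomb transcripts were held by the m6A antibody in wild-type HSCs, set against the input. Ring1 stood out, and the remaining genes lay within 2-fold. Ring1 (chr17:34020792-34024680) encodes one of the 2 alternative ubiquitin ligases of PRC1, and its levels in input, unbound and m6A-tagged RNA were 13.3, 6.29 and 31.0 RPKM. The m6A-tagged value was 2.24-fold the input (log2 ratio 1.16) and stood at the 97.1st percentile of all genes. With 5 RPKM added in place of 1 the log2 ratio of Ring1 was 0.98 and no Polycomb gene passed 2-fold, and with 0.1 RPKM added Suz12 also passed, at 1.06. Its paralog Rnf2 (chr1:151469398-151500991) had 25.4, 19.7 and 26.0 RPKM in input, unbound and m6A-tagged RNA, a log2 ratio to input of 0.03. The balance of the 2 ligase mRNAs thus differed between fractions: Rnf2 was 1.92-fold Ring1 in input, 3.12-fold in unbound and 0.84-fold in m6A-tagged RNA.

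Among the 10 genes, 1 passed 2-fold on the higher side against input, where 5.28% of all genes were, and 0 were 2-fold lower, where 5.32% of all genes were. A single gene in 10 is near this background. Suz12, the scaffold of the PRC2 core (chr11:79993106-80034123), went from an input level of 3.79 to an m6A-tagged level of 8.02 RPKM, a log2 ratio of 0.91. Cbx7 (chr15:79915804-79971143) had levels of 6.15 and 11.2 RPKM, a log2 ratio of 0.77. Both lay below the size used, at the 92.7th and 88.2nd percentiles. The abundant PRC2 genes lay on the other side of 0: Ezh2 had a log2 ratio of -0.72 and Eed of -0.51. Bmi1 (-0.37), Phc1 (-0.30), Jarid2 (-0.08) and Ezh1 (0.05) completed the set. The median of the 10 was -0.03, beside 0.12 for all genes.

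In Mettl3-deficient cells the same genes led the m6A-tagged to input ratio. The input and m6A-tagged levels of Ring1 were 8.69 and 16.2 RPKM, a log2 ratio of 0.83, and those of Suz12 were 0.622 and 1.58 RPKM, a log2 ratio of 0.67. Phc1 was next at 0.50 (8.32 and 12.1 RPKM), and Cbx7 had 0.34. Ezh2 was again the lowest, at -0.68 (39.3 and 24.2 RPKM). Of the 10 genes 0 were 2-fold higher, with a background of 2.24%, and 0 were 2-fold lower, with a background of 1.21%. Their median was 0.04, beside 0.13 for all genes. After median-ratio scaling of the columns, the background shares were 1.38% higher and 1.75% lower.

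The genotype difference in this ratio was taken by subtracting the log2 ratio of wild-type from that of Mettl3-deficient cells. It asks whether a transcript's m6A-tagged level, set against input, stood lower relative to other transcripts without Mettl3. RPKM is scaled to the depth of each library, so a change shared by all transcripts would not show in it. The difference was within 2-fold for all 10 Polycomb genes. The lowest were Cbx7 at -0.44, Rnf2 at -0.39 and Ring1 at -0.33, and the highest was Phc1 at 0.80. Suz12 had -0.24, and Ezh2, Ezh1 and Jarid2 lay within 0.07 of 0. Of the 10, 0 were 2-fold higher or lower, where 12.8% of all genes were, with a median of 0.02 against 0.01 for all genes. Ring1, the single gene past 2-fold in wild-type cells, was 1.78-fold higher on the same ratio in Mettl3-deficient cells.

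**Figure D2:**
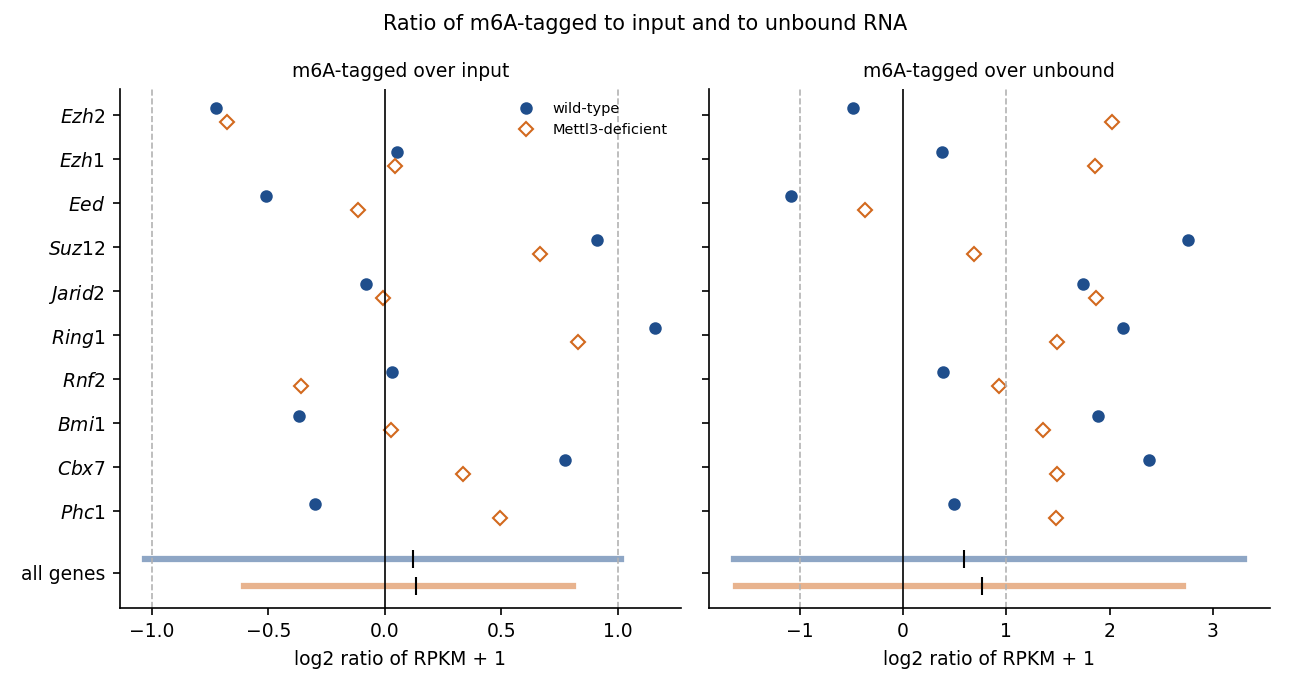
Log2 ratio of m6A-tagged RNA to input (left) and to unbound RNA (right) for each Polycomb gene, with filled circles for wild-type and open diamonds for Mettl3-deficient cells; the dashed lines mark 2-fold, and the bars at the bottom give the 5th to 95th percentile and the median (tick) of the 10152 genes. Against input the paired symbols lie within 2-fold of each other, the widest apart being those of Phc1 (-0.30 and 0.50), and Ring1 is on the right in both genotypes. Against unbound RNA those of Ezh2 (-0.49 and 2.03) lie far apart.

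The unbound fraction gives another reference for the same antibody step. Against unbound RNA, most Polycomb genes had more signal in the m6A-tagged fraction of wild-type cells, and Eed was lower. Of the 10 genes 5 were 2-fold higher, where 41.8% of all genes were, so their number is close to the background. The highest was Suz12, at 0.329 RPKM unbound and 8.02 RPKM m6A-tagged, a log2 ratio of 2.76. With 0.1 RPKM added in place of 1 this ratio of Suz12 was 4.24. With 5 RPKM added it was 1.29, below Ring1 (1.67) and Cbx7 (1.35). Cbx7 had 1.35 and 11.2 RPKM (2.38), and Ring1 6.29 and 31.0 RPKM (2.13). Bmi1, the PCGF subunit (chr2:18677018-18686629), had 1.21 and 7.16 RPKM (1.89). Jarid2, an accessory subunit that helps PRC2 to its targets (chr13:44730774-44921643), had 2.09 and 9.31 RPKM (1.74). These 5 genes had at most 6.29 RPKM in unbound RNA.

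Eed, which binds the PRC2 mark (chr7:89954654-89980976), was the single gene 2-fold lower on this ratio (background 14.3%), at 88.7 RPKM unbound and 41.2 RPKM m6A-tagged, a log2 ratio of -1.09. Ezh2 (chr6:47530274-47595270) had 45.3 and 32.0 RPKM, a log2 ratio of -0.49. The 2 most abundant genes in input thus sat at the low end of this ratio and the 2 least abundant, Suz12 and Cbx7, at the high end. The median of the 10 was 1.12, beside 0.59 for all genes.

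In Mettl3-deficient cells 7 of the 10 genes passed 2-fold on the higher side, with a background of 43.8%, and 0 were 2-fold lower, with a background of 11.6%. After median-ratio scaling these background shares were 35.0% and 17.5%. Ezh2 had become the highest, at 5.18 RPKM unbound and 24.2 RPKM m6A-tagged, a log2 ratio of 2.03. Ezh1, the paralog more prominent in resting cells (chr11:101191115-101226463), had 2.48 and 11.6 RPKM (1.86), and Jarid2 1.42 and 7.85 RPKM (1.87). Suz12 had 0.597 and 1.58 RPKM, a log2 ratio of 0.69, and Eed was again the lowest at -0.36. The median of the 10 was 1.49, beside 0.76 for all genes.

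The genotype difference in the m6A-tagged to unbound ratio was therefore widest at the 2 ends of PRC2. Ezh2 differed by 2.51 and stood at the 96.7th percentile of all genes, and Ezh1 differed by 1.48. Suz12 differed by -2.07, the 6.4th percentile, and its wild-type ratio, which enters this difference, depended strongly on the RPKM added. Thus 2 genes were 2-fold higher (background 21.7%) and 1 was 2-fold lower (background 23.2%). The other 7 ranged from -0.89 in Cbx7 to 1.00 in Phc1, which lay just under the size. The median was 0.34, beside -0.07 for all genes. The m6A-tagged column enters both ratios of a genotype, so the ratios to input and to unbound RNA are not separate results.

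Within each genotype, the unbound column itself was below the input for 9 of the 10 Polycomb genes, the exception being Eed in both. This direction is not particular to them, because the median of all genes was also below the input. The median log2 ratio of all genes was -0.47 (wild-type) and -0.54 (Mettl3-deficient), beside -0.88 and -1.22 for the 10 genes. In wild-type cells 4 genes were 2-fold lower in unbound than in input RNA, with a background of 36.6%, namely Bmi1 (log2 ratio -2.25), Suz12 (-1.85), Jarid2 (-1.82) and Cbx7 (-1.61). In Mettl3-deficient cells 6 were, with a background of 38.3%, and Ezh2 was the lowest at -2.70, followed by Jarid2 at -1.88 and Ezh1 at -1.81. The ratio of Eed was 0.58 in wild-type cells and 0.25 without Mettl3.

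The genotypes were next compared within each fraction, beginning with the input, which holds the transcript levels of the cells. In bulk RNA fewer cells of a type and less RNA per cell cannot be told apart. Polycomb genes were mostly lower in Mettl3-deficient input: 9 of the 10 had a ratio below 0, where 59.7% of all genes did, and their median was -0.46, beside -0.12 for all genes. The share below 0 for all genes was 51.4% after median-ratio scaling, while 9 of the 10 Polycomb genes were still below 0. Suz12 alone was 2-fold lower, 1 gene in 10 beside a background of 10.0%, and 0 were 2-fold higher, with a background of 2.28%.

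Suz12 stood at 3.79 RPKM in wild-type cells and 0.622 without Mettl3, 2.95-fold lower, at the 4.0th percentile. With 5 RPKM added in place of 1 its log2 ratio of -1.56 became -0.65, within 2-fold. Bmi1 was at 9.53 and 4.34 RPKM in wild-type and Mettl3-deficient input, 1.97-fold lower, just under the size used. Eed was at 59.2 and 31.7 RPKM, 1.84-fold lower. These genes, one PRC1 and a pair of PRC2 subunits, had the lowest ratios. Ring1 (13.3 and 8.69 RPKM), Phc1 (12.0 and 8.32 RPKM) and Ezh2 (53.6 and 39.3 RPKM) had log2 ratios of -0.56, -0.48 and -0.44. Phc1, the polyhomeotic subunit, lies at chr6:122317731-122340227. Jarid2 (-0.29), Ezh1 (-0.21), Cbx7 (-0.13) and Rnf2 (0.04) differed least. Summed over its 5 genes, the input level of PRC2 was 139.6 RPKM in wild-type cells and 90.8 without Mettl3, and that of PRC1 was 66.4 and 53.2 RPKM.

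Markers of other blood cells differed between the same input columns. The 5 granulocyte markers (Elane, Mpo, Prtn3, S100a8, S100a9) were lower in 5 of 5, and their input sums were 3842 RPKM in wild-type cells and 814.7 without Mettl3. The 2 eosinophil markers (Prg2, Epx) summed to 718.1 and 5.80 RPKM, and the 4 erythroid markers, lower in 4 of 4, to 108.5 and 20.0 RPKM. The 3 T cell markers summed to 14.5 and 1.18 RPKM, with the defining Cd3e and Cd8a under 0.05 RPKM in both, and the 4 B cell markers to 93.6 and 91.4 RPKM, nearly all of it Cd79b, with Ms4a1 at 0.318 and 0.0138 RPKM. The HSC markers Slamf1, Kit, Ly6a, Procr, Hlf, Mecom and Fgd5 were present and summed to 404.9 and 570.3 RPKM, lower in 3 of 7. Of these sums Ly6a alone made 117.7 and 347.7 RPKM, while Kit stood at 164.7 and 92.4 RPKM. The 6 proliferation markers summed to 440.9 and 436.0 RPKM, lower in 5 of 6, and the progenitor markers Cd48 and Flt3 to 28.3 and 20.3 RPKM. In unbound RNA the granulocyte sum was 5856 RPKM in wild-type cells and 2102 without Mettl3, lower in 4 of 5. Prtn3 went the other way there, at 773.6 and 1019.7 RPKM. The proliferation sum in unbound RNA was 416.9 and 270.4 RPKM, lower in 5 of 6. In m6A-tagged RNA the granulocyte sum was 4340 and 968.6 RPKM. The part of other cell types in the Polycomb differences was not tested.

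In the m6A-tagged fraction Suz12 again had the lowest ratio between genotypes. It was 2-fold lower, at 8.02 RPKM in wild-type cells and 1.58 without Mettl3, 3.50-fold lower and at the 2.8th percentile. With 5 RPKM added its log2 ratio of -1.81 became -0.98, within 2-fold. It was the 1 gene of 10 past the size (background 11.9% lower), and 0 were 2-fold higher (background 6.24%). Ring1 followed at 31.0 and 16.2 RPKM, a log2 ratio of -0.89. Bmi1 (-0.59), Cbx7 (-0.56) and Eed (-0.48) came next, and Phc1 was the single gene above 0, at 0.32. The median of the 10 was -0.44, beside -0.13 for all genes.

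In unbound RNA the 2 catalytic subunits of PRC2 had the lowest ratios. Ezh2 stood at 45.3 RPKM in wild-type cells and 5.18 without Mettl3, 7.48-fold lower, at the 1.7th percentile of all genes. Ezh1 stood at 10.3 and 2.48 RPKM, 3.24-fold lower, and Eed at 88.7 and 37.9 RPKM, 2.30-fold lower. These were the 3 genes 2-fold lower, with a background of 23.0%, and 0 were 2-fold higher, with a background of 17.1%. The sum of Ezh2 and Ezh1 was 55.5 RPKM in wild-type cells and 7.67 without Mettl3, while in input it was 66.7 and 50.5 RPKM. Rnf2 (19.7 and 10.1 RPKM) had a log2 ratio of -0.89, and Phc1 (6.52 and 3.69 RPKM) one of -0.68. The genes already low in wild-type unbound RNA, Jarid2 (-0.35), Ring1 (-0.25), Bmi1 (-0.06), Suz12 (0.27) and Cbx7 (0.32), differed less. The median of the 10 was -0.52, beside -0.06 for all genes.

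**Figure D3:**
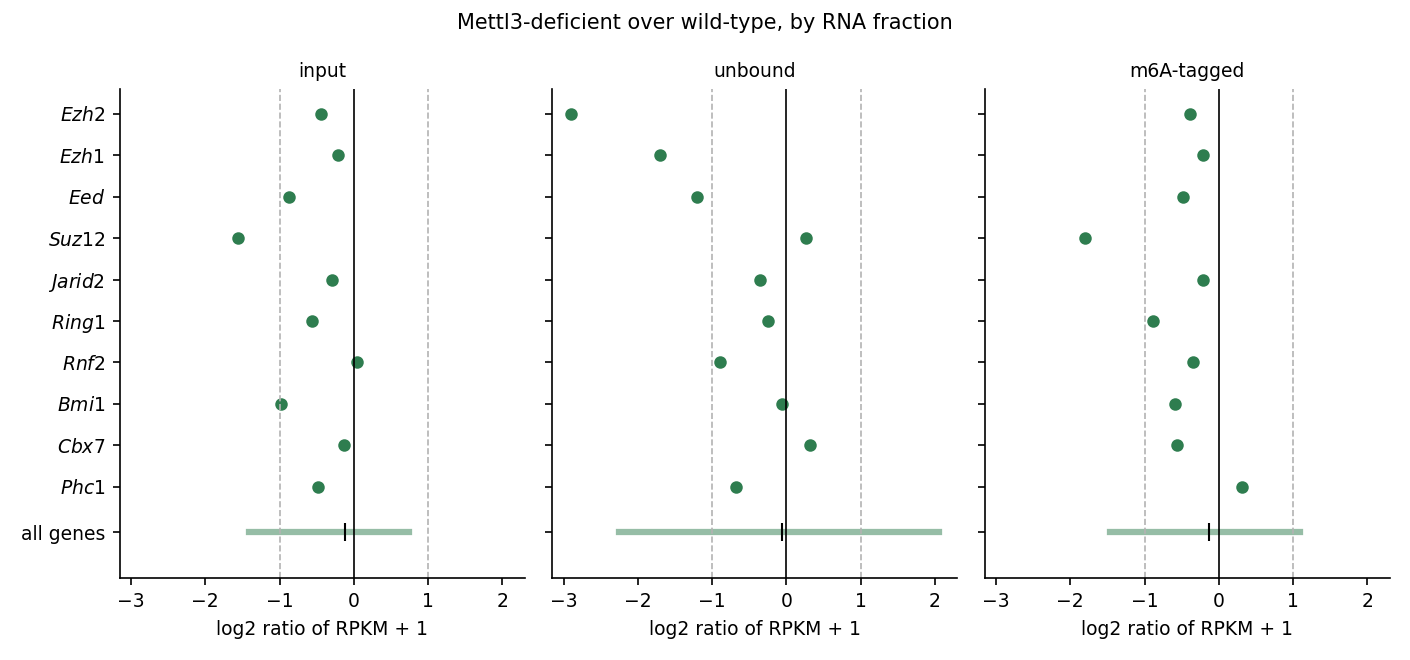
Log2 ratio of Mettl3-deficient to wild-type RNA for each Polycomb gene in input, unbound and m6A-tagged RNA; the dashed lines mark 2-fold, and the bar at the bottom gives the 5th to 95th percentile and the median (tick) of the 10152 genes. Suz12 lies at -1.56 in input and -1.81 in m6A-tagged RNA but at 0.27 in unbound RNA, where Ezh2 is the lowest at -2.90.

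The unbound comparison moved with the length of the gene on the chromosome. When the 10141 of these genes with a RefSeq span were put into 5 groups by that span, the median log2 ratio of Mettl3-deficient to wild-type unbound RNA went from 0.47 in the group of the shortest span (up to 6.7 kb) through 0.20, -0.09 and -0.45 to -0.52 in the longest (above 52.4 kb). Ezh2, with a span of 65.0 kb, belongs to the last group, and Ezh1 (35.3 kb), Suz12 (41.0 kb) and Rnf2 (31.6 kb) to the one before it. Eed (26.3 kb) and Phc1 (22.5 kb) are in the middle group. The span groups differed much less in input, from -0.09 in the shortest to -0.22 in the longest. Against the median of its own group Ezh2 differed by -2.38, Ezh1 by -1.25 and Eed by -1.12, whereas Jarid2, with the widest span at 190.9 kb, differed by 0.17. Among the marker genes Kit stood at 138.4 RPKM in wild-type cells and 9.52 without Mettl3 in unbound RNA, and Top2a at 32.6 and 2.63 RPKM. Other markers went the other way: of the 7 HSC markers 2 were lower without Mettl3 in unbound RNA, and of the 6 proliferation markers 5 were. The HSC sum in unbound RNA was 410.9 RPKM in wild-type cells and 866.5 without Mettl3, with Ly6a at 195.0 and 750.7 RPKM. The part of length in the ratio of Ezh2 was not tested.

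**Figure D4:**
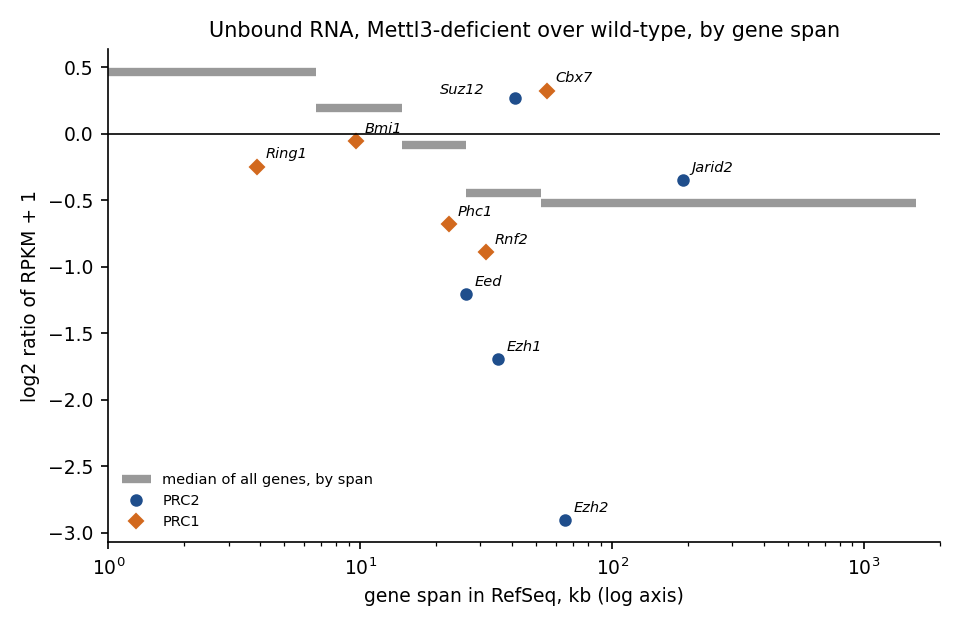
Log2 ratio of Mettl3-deficient to wild-type unbound RNA against gene span in kb (log axis, drawn from 1 kb); grey bars give the median of all genes in 5 groups of span, blue circles the PRC2 and orange diamonds the PRC1 genes. The grey medians go down from 0.47 to -0.52 with span, and Ezh2 lies far below its group at -2.90.

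For Suz12 the reads of single libraries could be worked out in 3 of the 6 groups, because its values are low enough that only 1 set of whole reads fits them at a gene length of 4373 bases. The libraries are given from the deepest to the shallowest, which is not their number in the labels. In wild-type unbound RNA the 3 libraries held 48, 41 and 22 reads, or 1.75, 1.54 and 0.905 reads per M. In Mettl3-deficient unbound RNA they held 161, 6 and 16 reads, or 5.90, 0.431 and 1.31 reads per M, so 88.0% of the reads came from 1 library. The groups overlapped, with means of 1.40 ± 0.44 and 2.55 ± 2.94 reads per M (SD, n = 3), and the exact permutation test gave a two-sided p of 0.90, where 3 against 3 can reach 0.10 at the least. The Suz12 difference of 0.27 in unbound RNA is thus within the spread between libraries.

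In Mettl3-deficient input the 3 libraries held 89, 78 and 14 Suz12 reads, or 2.96, 3.53 and 1.49 reads per M, a mean of 2.66 ± 1.06 (SD, n = 3). The wild-type input column corresponds to a mean of 16.6 reads per M, with the 1 read that the authors' formula adds, and its single libraries could not be solved. The 3 Mettl3-deficient libraries ranged from 1.49 to 3.53 reads per M and lay below the wild-type mean, but the wild-type spread is unknown and no test could be made. PCR reads without molecular identifiers are not independent molecules.

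**Figure D5:**
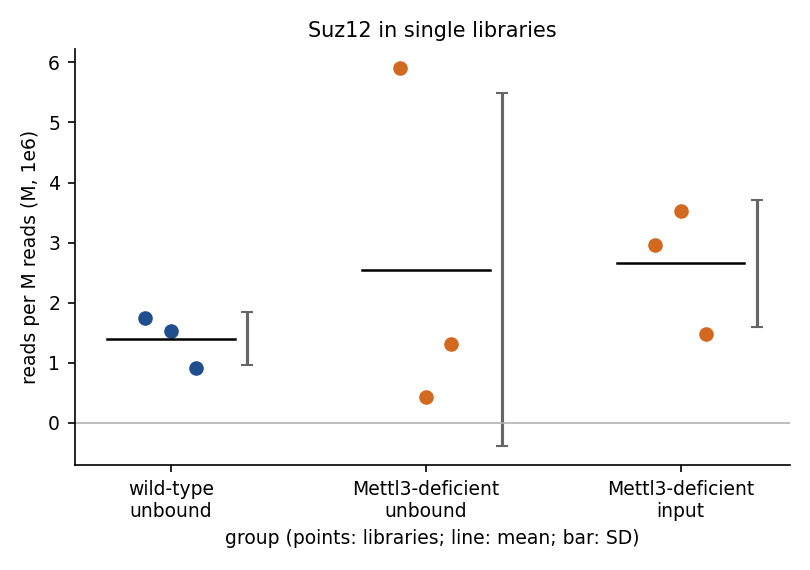
Suz12 reads per M reads in single libraries (points) of the 3 groups that could be solved, with the mean (line) and the SD (bar, n = 3). One Mettl3-deficient unbound library, at 5.90, lies above all wild-type unbound libraries. Of the other 2 of its group, 1.31 lies within the wild-type unbound range and 0.431 below it.

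The remaining subunits of the complexes and the opposing deubiquitinase were described from lists of 8 further PRC2, 23 further PRC1 and 10 PR-DUB genes. Genes that averaged 10 RPKM or more counted as measured, which left 3, 7 and 2 genes, 12 in all, against 6295 of all genes. In input, 1 of the 12 was 2-fold lower without Mettl3 (background 6.67%) and 0 were higher (background 2.38%), with a median of -0.08 beside -0.05 for all measured genes. E2f6, which joins a variant PRC1 to DNA, was the lowest at 30.1 and 10.4 RPKM, a log2 ratio of -1.45, followed by Pcgf1 (-0.75) and Scmh1 (-0.57). The highest were Mtf2 (0.62) and Rbbp7 (0.28), which belong to PRC2, and L3mbtl2 (0.13). Of these 12, 7 lay below 0, where 54.2% of all measured genes did.

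In unbound RNA 5 of the 12 were 2-fold lower (background 22.7%) and 0 higher (background 19.7%), with a median of -0.91 beside 0.02 for all measured genes. E2f6 (8.09 and 0.959 RPKM, log2 ratio -2.21), Ogt (-1.32) and Bap1 (-1.32), the deubiquitinase itself, were the lowest. Pcgf1 (0.52), Pcgf6 (0.22) and Yaf2 (-0.11) were the highest. In m6A-tagged RNA E2f6 (-1.12), Pcgf1 (-0.60) and Ogt (-0.50) were the lowest and Scmh1 (0.64), Rbbp7 (0.35) and Pcgf6 (0.24) the highest. There 1 of the 12 was 2-fold lower (background 7.15%) and 0 higher (background 6.02%).

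Against input, 0 of the 12 were 2-fold higher or lower in m6A-tagged RNA in wild-type cells (backgrounds 3.69% and 5.23%) or in Mettl3-deficient cells (backgrounds 1.37% and 1.45%). In wild-type cells L3mbtl2 (0.71), E2f6 (0.47) and Mtf2 (0.38) were the highest and Scmh1 (-0.82), Rbbp7 (-0.73) and Rbbp4 (-0.30) the lowest. In Mettl3-deficient cells E2f6 (0.80), Yaf2 (0.47) and Scmh1 (0.39) were the highest and Rbbp7 (-0.66), Mtf2 (-0.57) and Ogt (-0.32) the lowest. The genotype difference in this ratio was 2-fold higher for 1 of the 12, Scmh1 at 1.21 (background 7.31%), followed by Yaf2 (0.56) and E2f6 (0.33). It was 2-fold lower for 0 (background 2.91%), with Mtf2 (-0.95), L3mbtl2 (-0.47) and Ogt (-0.44) the lowest. Mtf2, a PRC2 accessory protein that binds CpG-rich DNA, had 33.0 RPKM in wild-type input, 43.3 in wild-type m6A-tagged, 51.4 in Mettl3-deficient input and 34.3 in Mettl3-deficient m6A-tagged RNA. It was the measured subunit whose m6A-tagged to input ratio was most reduced without Mettl3.

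Against unbound RNA, 4 of the 12 were 2-fold higher in m6A-tagged RNA in wild-type cells (background 31.5%) and 2 lower (background 19.3%). E2f6 (2.24), Ogt (2.09) and Mtf2 (1.96) were the highest and Rbbp7 (-1.23), Rbbp4 (-1.16) and Scmh1 (-0.59) the lowest. In Mettl3-deficient cells 6 were higher (background 33.7%) and 0 lower (background 16.9%), with E2f6 (3.34), Ogt (2.92) and Mtf2 (2.52) again the highest and Pcgf1 (-0.69), Rbbp7 (-0.45) and Pcgf6 (-0.10) the lowest. The histone-binding subunits Rbbp4 and Rbbp7, the most abundant of the 12 in wild-type input at 95.0 and 236.1 RPKM, were the 2 that were 2-fold lower in wild-type cells. The genotype difference was 2-fold higher for 4 (background 23.7%) and lower for 1 (background 22.8%), with Scmh1 (1.68), Bap1 (1.53) and Rbbp4 (1.11) the highest and Pcgf1 (-1.12), L3mbtl2 (-0.17) and Pcgf6 (0.02) the lowest.

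The list of 14 Trithorax-group genes and H3K27 demethylases, whose products oppose Polycomb, had 5 measured genes, Wdr5, Ash2l, Rbbp5, Dpy30 and Men1. In Mettl3-deficient against wild-type input 0 of the 5 were 2-fold higher (background 2.38%) or lower (background 6.67%), with a median log2 ratio of 0.18 beside -0.05 for all measured genes. In unbound RNA Men1 was 2-fold higher (9.20 and 26.7 RPKM, background 19.7%) and Rbbp5 2-fold lower (5.49 and 2.03 RPKM, background 22.7%). The H3K27 demethylase Kdm6a was under the minimum, at input levels of 8.87 RPKM in wild-type cells and 5.95 without Mettl3, and its relative Kdm6b was at 2.36 and 1.99 RPKM.

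Of 16 reported Polycomb targets, 2 were measured, the cell cycle inhibitor Cdkn1c (36.7 and 24.2 RPKM in wild-type and Mettl3-deficient input) and Hoxa9 (14.7 and 12.0 RPKM), with log2 ratios of -0.59 and -0.28. In unbound RNA Cdkn1c was 2-fold lower, at 21.1 and 9.54 RPKM (background 22.7%), and Hoxa9 stood at 7.32 and 13.9 RPKM. The best known Polycomb target, Cdkn2a, and its neighbour Cdkn2b had 0 reads in each of the 18 libraries. Over 481.3 M reads a count of 0 allows up to 3 reads, or 0.00549 RPKM for Cdkn2a and 0.00447 RPKM for Cdkn2b, a limit that covers counting error only. Gata4 and Gata6, developmental regulators held silent by Polycomb in many tissues, also had 0 reads in all 18. The inhibitor Cdkn1a, under the minimum, had input levels of 4.48 RPKM in wild-type cells and 7.40 without Mettl3. The inhibitor Cdkn2c, also under the minimum, had 11.2 and 4.15 RPKM, a log2 ratio of -1.25.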

How the data were processed

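The authors deposited 2 tables, 1 per genotype, of RPKM per gene, with 1 column for each of the 3 fractions. The build is mm10, and Picard and edgeR are named, without roles or versions, per the submitters' processing notes. Which aligner and counter were run is not given in the sources used here. From the arithmetic of the values, a column averages its 3 libraries after 1 read was added per gene. Tests across libraries (limma or an exact test) need a value per library and could not be made from pooled columns, except for the exact permutation test of Suz12.

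Library depths were solved from genes with few reads, where 94.6% of 7134 values had exactly 1 solution in whole reads, and the solver was tested on simulated data. Ratios were log2 after adding 1 RPKM, with 2-fold as the size. The background minimum of 2 RPKM was chosen after seeing the data, because 5 of the 10 genes lie under the planned 10 RPKM. Counts of the 10 genes used no minimum. All 71 list genes were found, 5 of them by gene ID alone. The text names all 10 genes and, in each comparison, the 3 highest and 3 lowest measured genes over the PRC2, PRC1 and PR-DUB lists. Apobec3, Cdkn1a, Cdkn2c, Kdm6a, Kdm6b, Cdkn2a, Cdkn2b, Gata4, Gata6 and the genes of the other lists were chosen after their values were seen. Genes and lists were chosen with earlier results of these data known. Analyses used Python 3.11.15, pandas 2.3.3 and scipy 1.17.1, and promoters and spans came from RefSeq GRCm38.p6. One HSC marker of the planned list is not reported here.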

Additional observations from a re-analysis of the deposited data

How the results depend on the processing

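Adding 0.1 or 5 RPKM in place of 1, and 2 other scalings of the columns, were tried on each of the 90 ratios of a Polycomb gene. None that was 2-fold apart changed sign. The 2 scalings (median ratio and upper quartile) moved 0 of 90 by over 1.5-fold, 0.1 RPKM moved 5 and 5 RPKM moved 14, mostly ratios of low genes. In Mettl3-deficient against wild-type input Suz12 was at -2.43 with 0.1 RPKM added and -0.65 with 5 RPKM added. Of the 10 genes, those at least 2-fold apart with 0.1 RPKM added numbered 2 in wild-type m6A-tagged against input, 1 in the same ratio of Mettl3-deficient cells, 2 in input between genotypes and 5 in the genotype difference against unbound RNA. Of all genes, 7.03%, 4.22%, 2.96% and 26.4% were then higher and 6.70%, 1.91%, 12.4% and 26.6% lower, in the same order. With 5 RPKM added they numbered 0 in wild-type m6A-tagged against input, 4 in Mettl3-deficient m6A-tagged against unbound (median 0.90), 0 in input between genotypes and 0 in m6A-tagged RNA between genotypes. Of all genes, 1.78%, 24.4%, 1.17% and 3.26% were then higher and 2.38%, 9.84%, 4.76% and 5.43% lower. With the 5 genes of a mean of at least 10 RPKM alone they numbered 2 in wild-type m6A-tagged against unbound (median 0.38), 3 in the same ratio of Mettl3-deficient cells, 0 in input and 0 in m6A-tagged RNA between genotypes, and the median in unbound RNA between genotypes was -1.20. Of all genes at that level, 31.5%, 33.7%, 2.38% and 6.02% were higher and 19.3%, 16.9%, 6.67% and 7.15% lower in the 4 comparisons counted. Median-ratio scaling moved the median of all genes by more than 0.1 in 6 of the 9 comparisons, the most in Mettl3-deficient m6A-tagged against unbound, from 0.76 to 0.43. In that comparison 1 of the 10 genes lay below 0 under both, where 30.5% of all genes did before and 39.4% after scaling. In wild-type m6A-tagged against input the scaling put 7 of the 10 below 0 in place of 5, in Mettl3-deficient cells 6 in place of 4, and in unbound RNA between genotypes 7 in place of 8. The shares of all genes below 0 were then 46.2%, 48.4% and 47.1%, in place of 42.7%, 37.6% and 52.4%. With no minimum level 27.6% of all genes were at least 2-fold apart in Mettl3-deficient m6A-tagged against unbound RNA, against 50.6% of those with a mean of at least 10 RPKM.

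No paired analysis was possible because the deposited columns pool the 3 libraries of a group, so the replicate numbers have no values of their own. For the same reason leaving out each replicate was not run. Depth limits Suz12: 14 to 89 reads per library lie behind its Mettl3-deficient input value and 6 to 161 behind its Mettl3-deficient unbound value.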

Other observations

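Reads of single libraries could also be solved for some low genes outside the 10, with the libraries again listed from the deepest to the shallowest. Rybp, a subunit of variant PRC1, had 85, 3 and 11 reads in the 3 Mettl3-deficient unbound libraries, 85.9% of them in the deepest, as for Suz12 (88.0%). In Mettl3-deficient input Rybp had 65, 32 and 6 reads, and in m6A-tagged RNA of these cells 42, 49 and 67. Its wild-type unbound libraries had 11, 46 and 1 reads. Epop, a PRC2 accessory subunit, had 19, 11 and 84 reads in Mettl3-deficient unbound RNA, most of them in the shallowest library, and 1, 71 and 77 in wild-type unbound RNA.

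Among the list genes with at least 20 solved reads in a group, 3 of 9 had at least 75% of their reads in 1 library in Mettl3-deficient unbound RNA and 2 of 9 in wild-type unbound RNA. In Mettl3-deficient input it was 1 of 8. These shares, and those of Rybp and Suz12 above, are of reads and are not adjusted for depth. Depth was 27.27, 13.92 and 12.24 M reads in the Mettl3-deficient unbound libraries and 27.38, 26.67 and 24.30 M in the wild-type unbound ones. The shares therefore do not compare spread between groups. The solved genes are low, and the spread of the more abundant Polycomb mRNAs such as Ezh2 is not known from them. Rybp and Epop were chosen after their values were seen.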
